A study of Mus musculus with 2 samples.

Results

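Colony-stimulating factors and Kit ligand are secreted or membrane-bound proteins that set how many myeloid cells a tissue holds. The 10 genes described here are the ligands Csf1, Il34, Csf2, Csf3 and Kitl and the receptor chains Csf1r, Csf2ra, Csf2rb, Csf3r and Kit, taken by symbol from the 32287 genes of the count tables, and all 10 were found there. Each was followed through the cell classes of injured mouse muscle, with the question of which non-immune cells carry the transcripts of the factors that act on myeloid cells.

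Macrophage colony-stimulating factor, encoded by Csf1, and interleukin-34 bind the same receptor tyrosine kinase, CSF1R, on which most tissue macrophages depend for survival. Granulocyte-macrophage colony-stimulating factor, encoded by Csf2, signals through a specific alpha chain, CSF2RA, and the common beta chain CSF2RB, which also serves interleukin-3 and interleukin-5. Granulocyte colony-stimulating factor, encoded by Csf3, acts through CSF3R on neutrophils and their precursors. Kit ligand, also called stem cell factor, binds the receptor tyrosine kinase KIT of blood progenitors, mast cells and melanocytes.

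The data were 2 droplet single-cell libraries, 1 per group, from hind limb muscle of male C57BL/6J mice aged 10 to 16 weeks, at 7 days after injury of the peroneal nerve on both sides. The IgG group received goat anti-mouse IgG and the SPP1-nAb group a neutralizing antibody against the secreted protein SPP1 (osteopontin), each as 2 µg in 10 µL injected into the tibialis anterior muscle every 2 days, so that injury and injections were common to both groups. The titles call both samples S100GFP-positive, the reporter in which the S100b promoter drives EGFP in Schwann cells, whereas the protocol sorted both GFP-positive and GFP-negative live cells and the strain label names no transgene. The labels give tibialis anterior and gastrocnemius as the muscles taken, while the paper names only tibialis anterior for this experiment. It also names S100GFP-tg mice as those given the antibodies. Neither the number of mice pooled nor the ratio of the sorted fractions is given in the sources used here.

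After filtering, 21047 cells with 81055337 unique molecular identifiers (UMIs, counts of captured transcript molecules) were kept for IgG and 22282 cells with 106376707 UMIs for SPP1-nAb, at a median of 3609 and 4532 UMIs per cell. Cells were gated by marker genes into classes, named with "-like" because the names were rebuilt from markers, and 17 classes that do not overlap held at least 20 cells in each library. With the phagocyte subclasses pooled, every defining marker of these classes was at least 1.5-fold higher than in the other cells, which gating on those markers sets in part. Smaller gates fell short of this, such as that of type-2 innate lymphoid cells, with 4 of 6 markers in the IgG library. The classes left 1978 and 1687 cells ungated and set apart 503 and 675 cells with markers of 2 lineages, and 163 cell barcodes occurred in both libraries. With 1 library per group there is no replicate check: levels are CPM, the UMIs of a gene per 1000000 UMIs of a class, intervals are exact 95% intervals for counting error only, and a ratio compares 2 libraries, not the treatments. Fewer cells of a class in a library cannot be told apart from a different yield of digestion and sorting, so shares of UMIs describe the libraries and not the muscle.

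The 5 ligands were carried by different cells (see the plot of levels by class). Non-immune classes held 64.0% of the Csf1 UMIs of gated cells in the IgG library (interval 62.1 to 65.9) and 28.3% in the SPP1-nAb library (26.8 to 29.7). They held 95.5% (92.5 to 97.6) and 87.2% (82.7 to 90.9) of the Il34 UMIs, and 55.6% (54.2 to 57.0) and 46.8% (45.2 to 48.4) of the Kitl UMIs. Of Csf3 they held little, at 2.26% (0.619 to 5.68) and 1.51% (0.693 to 2.85) of its UMIs. Among gated cells, non-immune cells therefore supplied most Il34 transcripts in both libraries, a large part of Kitl and next to no Csf3. Their part of Csf1 differed between the libraries. Of all Il34 UMIs of a library, those outside the gates included, gated non-immune cells held 78.8% (IgG) and 64.1% (SPP1-nAb). Ungated cells held 8.19% and 11.5% of them, and cells with markers of 2 lineages 9.32% and 14.9%. The cells behind the gated shares also differed: 5446 of 18566 gated cells were non-immune in the IgG library and 2995 of 19920 in the SPP1-nAb library.

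**Figure D1:**
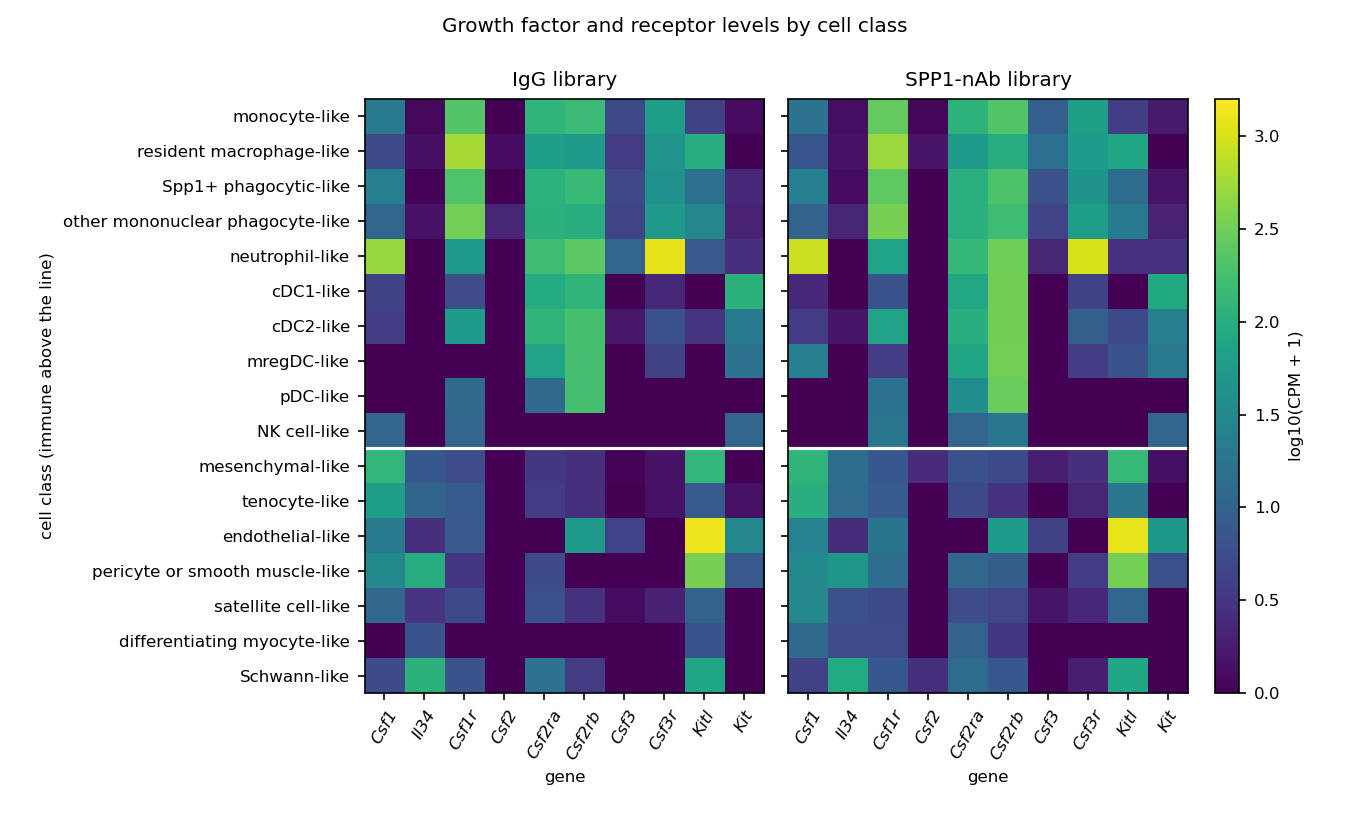
Level of each of the 10 genes (columns) in each of the 17 cell classes (rows), as log10(CPM + 1), with the IgG library on the left and the SPP1-nAb library on the right. Csf1 is highest in neutrophil-like cells, Il34 in Schwann-like and pericyte- or smooth-muscle-like cells, Kitl in endothelial-like cells, Csf1r in resident-macrophage-like cells and Kit in cDC1-like cells, in both libraries.

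**Figure D2:**
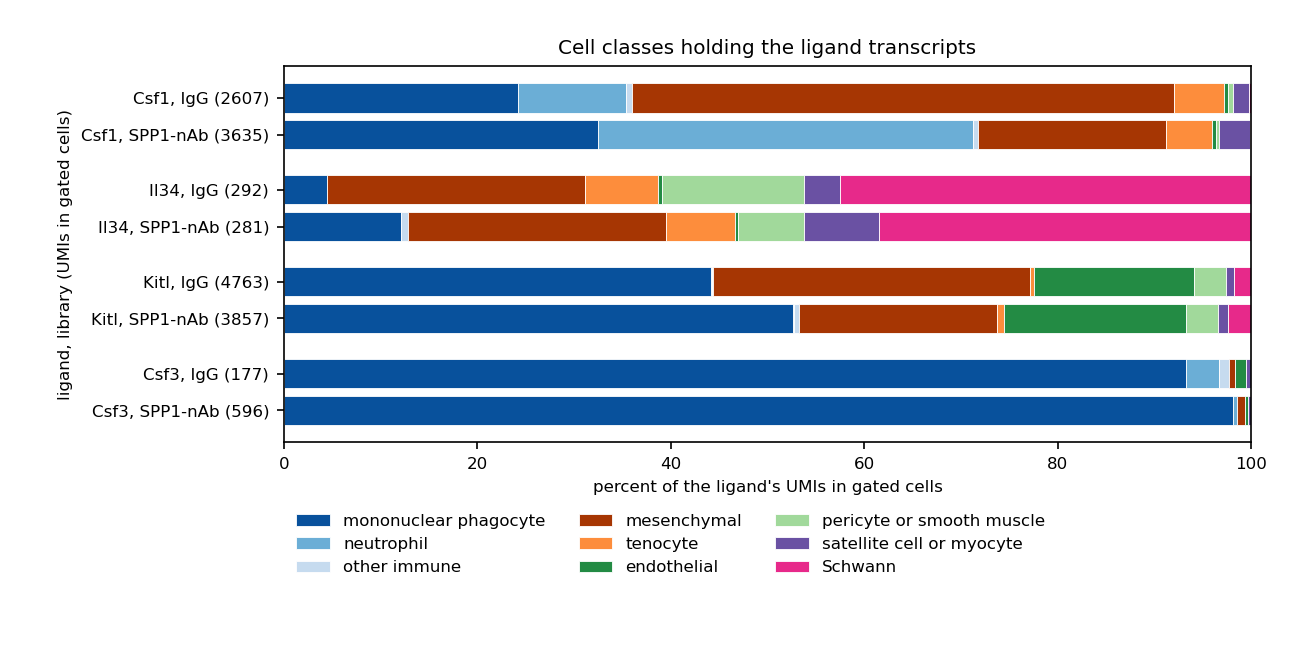
Share of the UMIs of Csf1, Il34, Kitl and Csf3 (percent of UMIs in gated cells) held by each block of cell classes, for the IgG and SPP1-nAb libraries. The mesenchymal part of Csf1 is 56.1% for IgG and 19.4% for SPP1-nAb, while the neutrophil part is 11.2% and 38.7%.

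Csf1 lies on chromosome 3 (GRCm39, 107648364 to 107667806, minus strand). Its promoter is shown because the gene was carried by both mesenchymal and myeloid classes. The sequence is that of RefSeq on build GRCm38.p6 at chr3:107760420-107760719, minus strand, from 250 bases before to 50 after the start, and capitals mark the matches to GGGCGG, the letters of GC boxes, searched on both strands.
Csf1: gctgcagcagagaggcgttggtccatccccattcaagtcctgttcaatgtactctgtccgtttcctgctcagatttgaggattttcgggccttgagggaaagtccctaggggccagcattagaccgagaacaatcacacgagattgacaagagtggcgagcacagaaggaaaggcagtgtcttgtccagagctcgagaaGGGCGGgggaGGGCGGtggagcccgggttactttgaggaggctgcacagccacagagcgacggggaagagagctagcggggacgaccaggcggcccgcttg
The window holds 2 matches, the first at position -51 from the start. These letters occurred in 35.7% of 32851 mouse promoters of the same length and in those of 5 of the 6 members that the table holds, Csf1, Csf2, Csf2ra, Kitl and Kit, and a match describes letters only.

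Among non-immune cells the mesenchymal-like class, the fibroblasts and fibro-adipogenic progenitors of muscle, was the main carrier of Csf1. Its level was 125 CPM in the IgG library (119 to 132, 1456 UMIs in 887 of 2308 cells) and 123 CPM in the SPP1-nAb library (114 to 132, 702 UMIs in 374 of 827 cells). The log2 ratio of SPP1-nAb over IgG was -0.03 with an interval of -0.16 to 0.11, so that the levels lay close together while the class held fewer cells. Different clusters held most of this class in the libraries: cluster 12 held 56.8% and 24.4% of it and cluster 13 held 19.8% and 59.7%, in clusters of both libraries made without the members and Spp1. Values within clusters, a comparison chosen after seeing the data, are therefore given beside some of the ratios below, but not beside all of them. Thinned to 2000 UMIs a cell, 20.3% of the mesenchymal-like cells had a Csf1 UMI in either library. Cells with Pi16 or Dpp4, which mark adventitial progenitors, and with neither Smoc2 nor Cxcl14, had 180 CPM (160 to 201) and 160 CPM (124 to 202). Cells of the opposite pattern, with Smoc2 or Cxcl14, had 104 CPM (96.6 to 113) and 118 CPM (106 to 131). The intervals of both subsets were apart in the IgG library and overlapped in the SPP1-nAb library.

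Tenocyte-like and satellite-cell-like cells had more Csf1 in the SPP1-nAb library. In tenocyte-like cells, the collagen-producing cells of tendon, Csf1 stood at 58.7 CPM with IgG (49.1 to 69.5) and at 104 CPM with SPP1-nAb (89.2 to 121), a log2 ratio of 0.83 (0.49 to 1.17). In satellite-cell-like cells, the muscle stem cells, it was 10.3 CPM (43 UMIs in 39 of 1454 cells) and 29.5 CPM (113 UMIs in 83 of 935 cells), a log2 ratio of 1.52 (1.00 to 2.06). Csf1 was the only member in either class with the 100 UMIs over both libraries set for counting a gene as past 1.5-fold, and it was past 1.5-fold in both, where 4.53% of all genes were that much higher and 2.64% lower in tenocyte-like cells, and 4.59% and 4.19% in satellite-cell-like cells. Cell depth differed along with it, since the median was 2322 UMIs in satellite-cell-like cells of the IgG library and 3253 in those of the SPP1-nAb library. After thinning to 2000 UMIs, which left out 514 and 179 cells, 2.34% (1.47 to 3.52) and 5.42% (3.92 to 7.29) of satellite-cell-like cells had a Csf1 UMI. Thinned to 1000 UMIs, which left out 25 and 10 cells, the shares were 1.12% (0.641 to 1.81) and 1.30% (0.672 to 2.26), and thinned to 500 UMIs 0.550% and 0.535%, so that the difference was seen at 2000 UMIs but not at these lower depths, where 5 to 16 cells had a UMI. Unthinned, the shares were 2.68% and 8.88%. Tenocyte-like cells also differed in depth, at medians of 2627 and 3533 UMIs. Thinned to 2000 UMIs, 10.4% (7.78 to 13.5) and 17.8% (13.7 to 22.5) of them had a Csf1 UMI. Thinned to 1000 UMIs the shares were 4.62% (3.14 to 6.52) and 8.92% (6.26 to 12.2). Thinned to 500 UMIs they were 3.95% (2.62 to 5.69) and 5.56% (3.51 to 8.29), and the intervals overlapped at both lower depths.

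The satellite-cell-like class was also made up differently, since cluster 16 held 37.3% of it in the IgG library and 1.28% in the SPP1-nAb library, while cluster 7 held 46.1% and 69.5% and cluster 18 held 13.8% and 24.9%. Within cluster 7 Csf1 had 9.99 and 24.7 CPM on 18 and 50 UMIs, a log2 ratio of 1.31 (0.51 to 2.17), and within cluster 18 it had 11.0 and 36.6 CPM on 13 and 63 UMIs, a log2 ratio of 1.73 (0.86 to 2.72). Tenocyte-like cells lay mostly in cluster 14, with a log2 ratio of 0.82 (0.43 to 1.22) there.

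The remaining non-immune classes added little Csf1. Pericyte- or smooth-muscle-like cells had 31.4 and 30.8 CPM and endothelial-like cells 20.2 and 24.9 CPM, each from at most 15 UMIs. Schwann-like cells, the glia of peripheral nerve, had 4.58 and 3.33 CPM, from 5 and 4 UMIs. Each of the endothelial-, mural- and Schwann-like classes held between 0.110% and 0.537% of the gated Csf1 UMIs of a library.

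The highest Csf1 level of any class was in neutrophil-like cells, at 495 CPM (440 to 555) with IgG against 865 CPM (821 to 912) with SPP1-nAb. The log2 ratio was 0.81 (0.62 to 0.99), and of 5 members with enough UMIs in this class Csf1 alone was past 1.5-fold, where 7.57% of all genes were that much higher and 4.55% lower. The UMIs came from 143 of 473 cells and 517 of 1104 cells, with at most 8 and 16 in a single cell. Neutrophil-like cells were shallow, at medians of 1233 and 1380 UMIs, and thinned to 500 UMIs 15.4% (12.3 to 19.0) and 28.2% (25.5 to 30.9) of them had a Csf1 UMI. Against that, cDC2-like cells, a class of dendritic cell at greater depth, had a Csf1 UMI in 0.618% and 1.12% of cells. Markers of other lineages stood in neutrophil-like cells at a median of 2.62% of their level in the whole library for IgG and 13.1% for SPP1-nAb, and with a free-RNA part of that size subtracted the log2 ratio was 0.80. When classes were taken from clusters in place of gates, the ratio was 0.47.

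Mononuclear-phagocyte-like cells, the monocytes and macrophages, had 13.2 and 15.5 CPM of Csf1, but with 11619 and 14803 cells they held 24.2% and 32.5% of its gated UMIs. Within them the Spp1+ phagocytic-like subclass had 23.1 CPM (20.4 to 26.1) and 22.9 CPM (21.3 to 24.7), a log2 ratio of -0.01 (-0.22 to 0.20). Monocyte-like cells had 19.2 and 15.7 CPM, a log2 ratio of -0.28 (-0.55 to -0.01). Resident-macrophage-like cells were lowest, at 4.54 and 6.12 CPM. The pooled log2 ratio over these phagocytes was 0.23 (0.09 to 0.37) and became -0.05 when the subclass levels were weighted by the IgG make-up in both libraries, an alternative chosen after seeing the data.

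**Figure D3:**
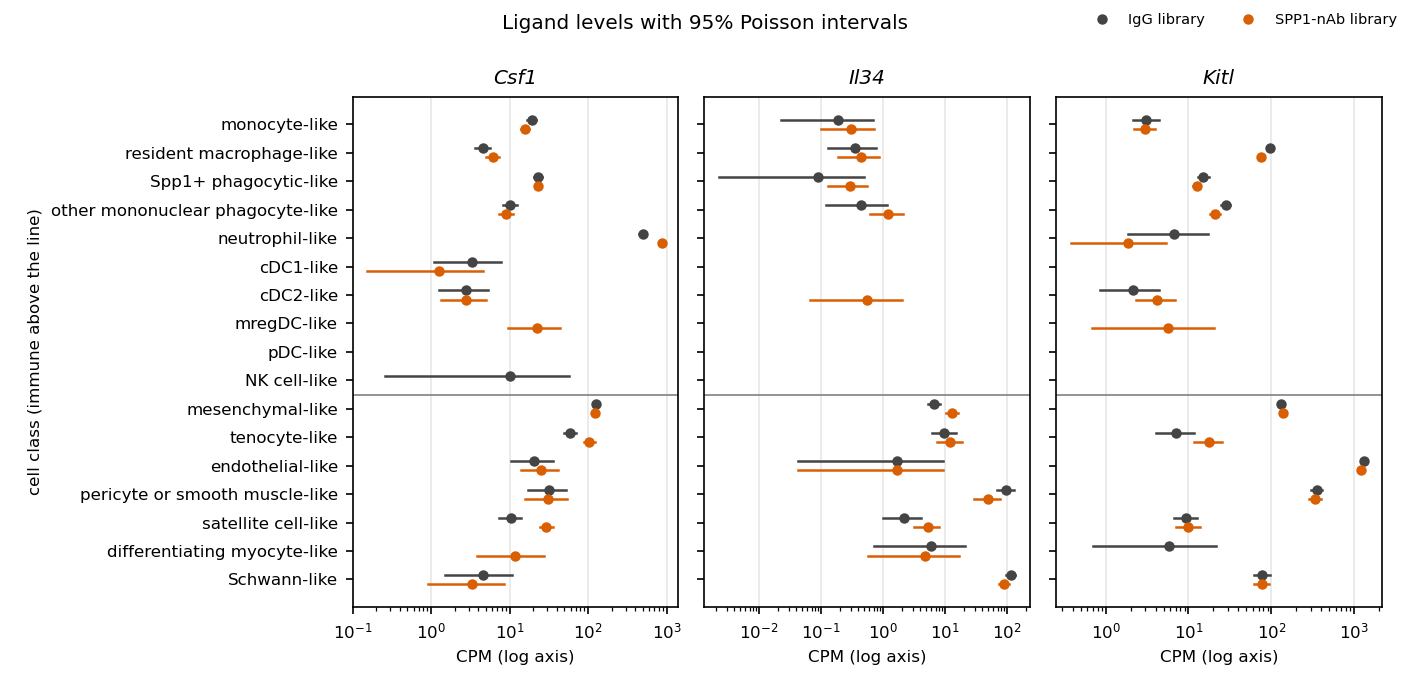
Csf1, Il34 and Kitl in each cell class, as CPM on a log axis, with a point and an exact 95% Poisson interval for the IgG (grey) and SPP1-nAb (orange) libraries; classes without a UMI have no point. Kitl in endothelial-like cells is 1330 for IgG and 1198 for SPP1-nAb, and Il34 has its highest points in Schwann-like cells, at 114 and 89.9.

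Il34, on chromosome 8 (GRCm39, 111423928 to 111532584, minus strand), had its highest levels in Schwann-like and pericyte- or smooth-muscle-like cells in both libraries. Schwann-like cells had 114 CPM (94.5 to 135, 124 UMIs in 92 of 379 cells) with IgG against 89.9 CPM (73.8 to 109, 108 UMIs in 85 of 348 cells) with SPP1-nAb. They held 42.5% and 38.4% of all gated Il34 UMIs. The log2 ratio was -0.34 with an interval of -0.72 to 0.05, which includes no difference, and neither of the 2 members with enough UMIs in Schwann-like cells was past 1.5-fold, where 1.45% of genes were higher and 2.30% lower. Schwann-like cells with Reln had 114 and 104 CPM and those without it 113 and 73.7 CPM, and these intervals overlapped in each library.

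Pericyte- or smooth-muscle-like cells came next, at 96.5 CPM (69.8 to 130) and 48.7 CPM (29.3 to 76.1). Their log2 ratio was -0.99 (-1.85 to -0.18) on 43 and 19 UMIs, below the 100 UMIs set for a call. Depth differed too, at medians of 2475 and 3542 UMIs. Thinned to 2000 UMIs, 8.70% (3.83 to 16.4) and 9.86% (4.06 to 19.3) of these cells had an Il34 UMI. Thinned to 1000 UMIs the shares were 15.6% (10.0 to 22.7) and 3.26% (0.678 to 9.23), so the direction depended on the depth chosen. In the IgG library this class and the Schwann-like class had overlapping intervals and both stood apart from every class below them. Tenocyte-like cells had 9.70 and 12.2 CPM.

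Mesenchymal-like cells had a low Il34 level but many cells, and held 26.7% and 26.3% of its gated UMIs. The level was 6.70 CPM (5.30 to 8.36, 78 UMIs) for IgG and between 10.2 and 16.3 CPM (interval, 74 UMIs) for SPP1-nAb, a log2 ratio of 0.95 (0.47 to 1.43). It was past 1.5-fold, as 1 of 3 members counted in the class, where 5.06% of all genes were that much higher and 7.17% lower. The cells with a UMI were 2.86% and 6.89%, at medians of 4715 and 7129 UMIs, and 1.40% (0.937 to 2.00) and 1.98% (1.11 to 3.24) after thinning to 2000 UMIs, where the intervals overlapped. Within cluster 12 the log2 ratio was 1.39 (0.40 to 2.34) on 27 and 16 UMIs, and within cluster 13 it was 0.58 (-0.09 to 1.28) on 30 and 54 UMIs, which includes no difference. Satellite-cell-like cells had 2.15 and 5.22 CPM on 9 and 20 UMIs.

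Immune cells were nearly without Il34. Mononuclear-phagocyte-like cells had 0.272 and 0.446 CPM, with a UMI in 13 of 11619 and 33 of 14803 cells. Neutrophil-like cells had 0 UMIs in both libraries. Markers of other lineages stood in the phagocytes at a median of 3.36% and 4.07% of their library level. With the free-RNA part estimated in this way subtracted from each class, non-immune classes held 97.9% of the gated Il34 UMIs in the IgG library, against 95.5% before. The source of the immune UMIs that remained was not tested. By contrast, 24.3% and 24.4% of Schwann-like cells had a UMI at lower median depth, 2740 and 3258 UMIs against 3895 and 4921.

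Kitl, on chromosome 10 (GRCm39, 99851492 to 99936278, plus strand), had its highest level in the endothelium. Its promoter is shown because Kitl was carried by vessel, stromal, glial and macrophage classes alike. Capitals mark TATAAA, the letters of a TATA box, searched on both strands and found in the window of Kitl alone among the 6 members in the table. The sequence is from RefSeq, build GRCm38.p6, chr10:100015571-100015870, plus strand.
Kitl: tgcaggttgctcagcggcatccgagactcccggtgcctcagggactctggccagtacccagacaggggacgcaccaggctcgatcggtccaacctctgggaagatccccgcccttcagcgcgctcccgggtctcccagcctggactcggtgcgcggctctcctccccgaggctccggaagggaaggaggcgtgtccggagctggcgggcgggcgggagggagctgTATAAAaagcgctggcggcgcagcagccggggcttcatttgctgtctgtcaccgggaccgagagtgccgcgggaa
The motif begins at position -25 from the start and occurred in 13.6% of promoters of this length.

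Endothelial-like cells had 1330 CPM of Kitl (1239 to 1426) with IgG against 1198 CPM (1112 to 1288) with SPP1-nAb, with a UMI in 74.9% and 71.7% of cells although their median depth was only 1203 and 1317 UMIs. The log2 ratio was -0.15 (-0.30 to 0.00). No other member had 100 UMIs there over both libraries, and 3.16% of all genes were past 1.5-fold in each direction. Pericyte- or smooth-muscle-like cells followed at 352 CPM (299 to 412) and 336 CPM (281 to 399), a log2 ratio of -0.07 (-0.41 to 0.28), where 3.87% of genes were past 1.5-fold higher and 4.07% lower. Vessel cells of both kinds thus stood apart from every other class, in that order, in each library.

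Mesenchymal-like cells carried Kitl at 132 CPM with IgG (125 to 138) and at 137 CPM with SPP1-nAb (128 to 147) and, by their number, held 32.1% and 20.3% of gated Kitl UMIs. Their log2 ratio was 0.06 (-0.07 to 0.18). In contrast to Csf1, Kitl was lower in the Pi16 or Dpp4 subset, at 97.3 CPM (83.0 to 113) and 57.0 CPM (36.9 to 84.1), than in the Smoc2 or Cxcl14 subset, at 142 CPM (133 to 151) and 150 CPM (136 to 164), with intervals apart in both libraries. Schwann-like cells had 77.0 and 77.4 CPM, a log2 ratio of 0.01 (-0.43 to 0.45). Within them, cells with Reln had 72.6 CPM (51.1 to 100) and those without 80.8 CPM (59.4 to 107) in the IgG library, against 41.9 CPM (27.6 to 60.9) and 119 CPM (91.8 to 151) with SPP1-nAb. Tenocyte-like cells had 7.06 and 17.7 CPM, but 10 of the 29 UMIs in the SPP1-nAb library came from 1 cell, and the log2 ratio of 1.33 turned to -0.54 when each gate asked for 1 more marker.

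Over all non-immune cells Kitl was 128 CPM and 129 CPM, a log2 ratio of 0.02 (-0.07 to 0.11). Over all kept cells it was 63.6 and 41.3 CPM, a log2 ratio of -0.62 (-0.68 to -0.56). Kitl was the 1 member past 1.5-fold lower among 9 counted over all kept cells, and Csf2rb and Csf3 were past it higher. Of all genes 16.8% were that much lower and 2.70% higher, so the lower count is not above the share over all genes. The Kitl level over all cells was lower while that over non-immune cells was nearly equal.

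Resident-macrophage-like cells were the main immune carriers of Kitl, with 34.6% and 35.8% of its gated UMIs. They stood at 97.2 CPM (92.5 to 102, a UMI in 1019 of 4479 cells) and 74.8 CPM (71.0 to 78.9, a UMI in 732 of 3888 cells). The log2 ratio was -0.38 (-0.48 to -0.27). Monocyte-like cells of similar depth had 3.10 and 2.96 CPM and cDC1-like cells, the cross-presenting dendritic cells, had 0 UMIs in both libraries, which is the background against which the resident-macrophage level stood apart. Thinned to 2000 UMIs, 15.7% (14.6 to 16.8) and 11.6% (10.6 to 12.7) of resident-macrophage-like cells had a Kitl UMI, against 0.471% and 0.406% of monocyte-like cells.

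The Kitl level within resident-macrophage-like cells followed Lyve1, a marker of perivascular macrophages. Cells with a Lyve1 UMI had 153 CPM (142 to 163) and 138 CPM (126 to 151), and cells without had 70.0 CPM (65.2 to 75.0) and 61.1 CPM (57.2 to 65.2). The libraries held 1422 and 662 cells with Lyve1. Other subclasses were lower, with 28.2 and 20.7 CPM in the phagocytes without a subclass and 15.1 and 12.5 CPM in Spp1+ phagocytic-like cells. Pooled over mononuclear-phagocyte-like cells the log2 ratio was -0.73 (-0.81 to -0.64), and -0.37 with the IgG make-up in both libraries, so part of the pooled difference lay in the mix of subclasses.

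Csf2 was close to undetected. It had 20 UMIs in 7 cells of the IgG library and 23 UMIs in 8 cells of the SPP1-nAb library. In the IgG library 11 of the UMIs were in 1 phagocyte and 2 cells of the type-2 innate lymphoid class had 2 UMIs each. In the SPP1-nAb library 1 mesenchymal-like and 1 resident-macrophage-like cell had 7 UMIs each. No supplying class can be named from so few cells.

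Csf3 was rare and carried mainly by phagocytes, with 188 UMIs in 101 cells and 612 UMIs in 266 cells over all kept cells. Mononuclear-phagocyte-like cells held 93.2% and 98.2% of its gated UMIs. Neutrophil-like cells had the highest Csf3 level of any class in the IgG library, at 10.2 CPM (3.73 to 22.1), but from 6 UMIs in 4 cells. With SPP1-nAb they had 1.23 CPM (0.149 to 4.45) from 2 UMIs. Resident-macrophage-like cells had 2.59 CPM (1.89 to 3.48, 44 UMIs in 24 cells) with IgG against 13.7 CPM (12.1 to 15.5, 253 UMIs in 98 cells) with SPP1-nAb, which gives a log2 ratio of 2.40 (1.94 to 2.90). The cell with the most had 9 and 17 UMIs, and the 10 highest cells held 68.2% and 36.0% of the UMIs, so the level rested on few cells in both libraries. Clusters 2 and 3 held most cells of the class in both libraries, but not most of its Csf3 UMIs. Within them the log2 ratios were 2.47 (1.28 to 3.88) and 2.89 (1.79 to 4.18). These rested on 7 and 8 of the 44 UMIs with IgG and on 37 and 46 of the 253 with SPP1-nAb. They do not cover the Csf3 UMIs of the class in other clusters. After thinning to 2000 UMIs 0.339% (0.185 to 0.568) and 1.71% (1.31 to 2.18) of resident-macrophage-like cells had a Csf3 UMI.

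Monocyte-like cells had 4.13 and 8.11 CPM of Csf3, which is 1.96-fold (1.39 to 2.83). Cluster 4 held 57.1% and 30.8% of the monocyte-like class and cluster 5 held 26.8% and 37.4%, and within cluster 4 the log2 ratio of Csf3 was 0.57 (-0.22 to 1.37), which includes no difference. Spp1+ phagocytic-like cells had 4.01 CPM (2.93 to 5.37) against an interval of 4.43 to 6.06 CPM, a log2 ratio of 0.37 (-0.11 to 0.88), and the phagocytes without a subclass 3.57 and 3.52 CPM. The order of the subclasses therefore differed between the libraries: in the IgG library the intervals of all 4 overlapped, and in the SPP1-nAb library resident-macrophage-like cells stood apart at the top. Csf3 and Csf2rb were the 2 members past 1.5-fold higher among 7 counted in resident-macrophage-like cells, where 3.64% of all genes were that much higher and 6.30% lower.

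Among the receptors, Csf1r was highest in resident-macrophage-like cells, at 582 CPM (570 to 593) and 520 CPM (510 to 530). Phagocytes without a subclass had 330 and 347 CPM, monocyte-like cells 222 and 272 CPM, and Spp1+ phagocytic-like cells 210 and 256 CPM. Non-immune cells had 4.73 and 6.46 CPM. The log2 ratio was -0.16 (-0.20 to -0.12) in resident-macrophage-like cells and lay above 0 in monocyte-like cells at 0.30 (0.22 to 0.37) and in Spp1+ phagocytic-like cells at 0.29 (0.22 to 0.35). In cDC2-like cells it was 0.41 (0.13 to 0.69), from 55.3 and 73.3 CPM. All of these were within 1.5-fold.

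The pooled Csf1r ratio of mononuclear-phagocyte-like cells was -0.13 (-0.16 to -0.10) and 0.01 with the IgG make-up in both libraries, so its direction rested on the mix of subclasses. The phagocytes that carried Csf1r thus had little Il34, but they held 24.2% and 32.5% of the gated Csf1 UMIs, and the rest of both ligands lay mostly in neutrophil-, mesenchymal-, tenocyte-, Schwann- and mural-like cells.

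Csf2rb, on chromosome 15 (GRCm39, 78209952 to 78238047, plus strand), was the member whose ratio left 0 in the largest number of classes. Of 12 classes with more than 3 UMIs in each library the counting interval of its ratio lay above 0 in 9, included 0 in 3 and lay below 0 in none. The 9 include mesenchymal-like cells, at 1.72 and 4.20 CPM from 20 and 24 UMIs, a level at which free RNA cannot be set apart. The share of all genes with an interval above 0 was not computed, so these counts of classes are not a result about Csf2rb. Pooled mononuclear-phagocyte-like cells had 106 and 173 CPM, a log2 ratio of 0.71 (0.66 to 0.76), or 0.59 with the IgG make-up. Csf2rb and Csf3 were past 1.5-fold higher and Kitl lower among 7 members counted there, where 2.49% of all genes were that much higher and 8.32% lower. The median log2 ratio over all genes in these cells was -0.04.

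**Figure D4:**
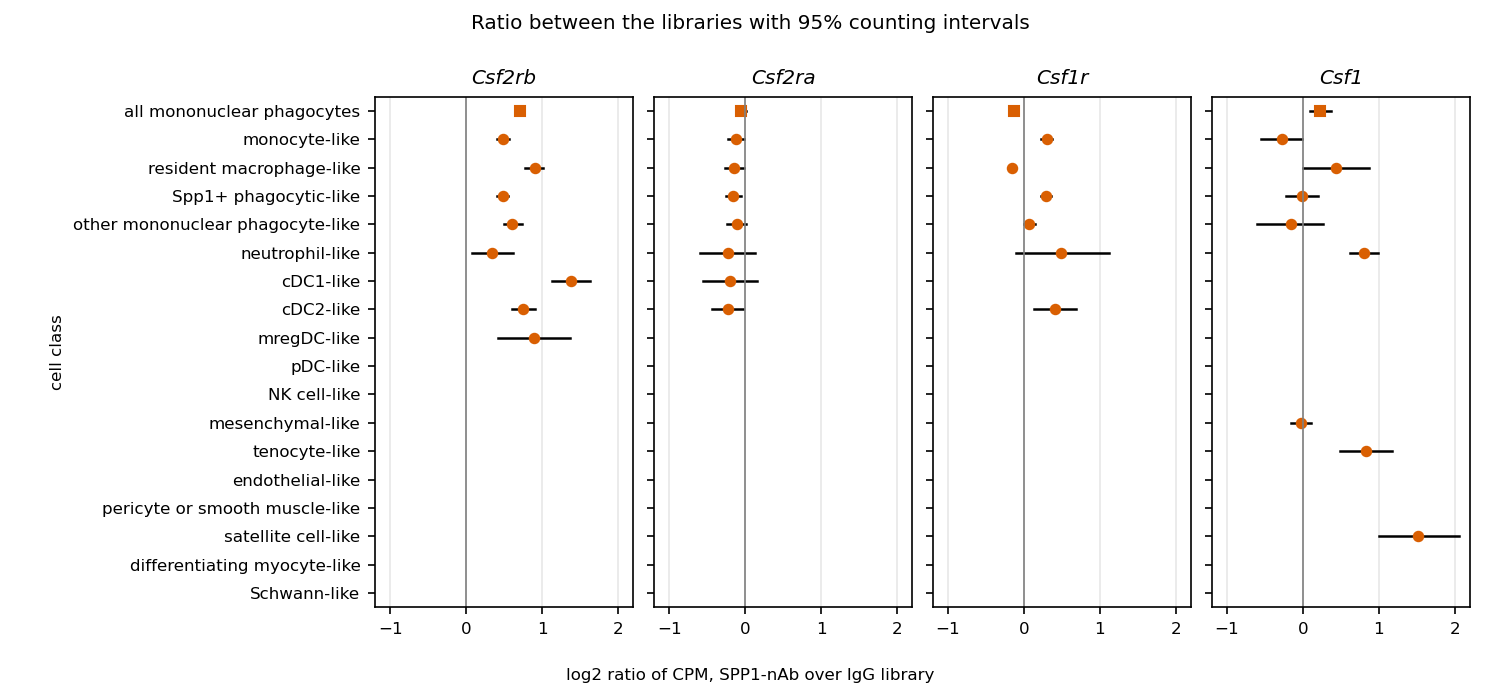
Log2 ratio of SPP1-nAb over IgG for Csf2rb, Csf2ra, Csf1r and Csf1 in each cell class with at least 100 UMIs over both libraries, with exact 95% counting intervals and a line at 0. The interval of Csf2rb lies to the right of 0 in all 8 classes drawn, and that of Csf2ra in 0 of 7. The share of all genes with such an interval was not computed.

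The Csf2rb difference was largest in cDC1-like cells, at 122 CPM (105 to 141) and 318 CPM (291 to 347), a log2 ratio of 1.38 (1.13 to 1.63). The share of these cells with a UMI was 39.9% and 73.2%, and after thinning to 2000 UMIs 20.8% (15.8 to 26.5) and 40.7% (33.9 to 47.7). In cDC2-like cells the level was 187 and 316 CPM, a log2 ratio of 0.75 (0.61 to 0.90), and in mregDC-like cells, mature migratory dendritic cells, 178 and 330 CPM, a log2 ratio of 0.89 (0.42 to 1.37). It was past 1.5-fold in all 3 dendritic classes, where 3.61%, 3.65% and 5.21% of all genes were that much higher and 3.08%, 3.50% and 3.70% lower. In the IgG library the neutrophil-like class had the highest Csf2rb level, with an interval that overlapped those of the mregDC- and pDC-like classes. In the SPP1-nAb library the intervals of the 5 highest classes overlapped, so these classes cannot be ordered. The mregDC-, cDC1-, cDC2- and neutrophil-like classes had 330, 318, 316 and 314 CPM there.

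Within phagocytes, resident-macrophage-like cells had the lowest Csf2rb level and the widest ratio, from 51.8 to 96.4 CPM, a log2 ratio of 0.90 (0.78 to 1.01). Within the largest clusters of this class the ratio was smaller and no longer past 1.5-fold, at 0.40 (0.14 to 0.67) in cluster 2 and 0.48 (0.29 to 0.68) in cluster 3. Cluster 8, which held 3.15% of the class in the IgG library and 14.8% in the SPP1-nAb library, had 0.74 (0.39 to 1.10). Csf2rb was present in cells with Lyve1, at 42.8 CPM (37.5 to 48.6) and 68.6 CPM (59.9 to 78.1), and without it, at 56.3 CPM (52.0 to 60.8) and 102 CPM (97.4 to 108). Monocyte-like cells had 152 and 213 CPM, a log2 ratio of 0.49 (0.40 to 0.57), and Spp1+ phagocytic-like cells 145 and 202 CPM, a log2 ratio of 0.48 (0.40 to 0.55). Phagocytes without a subclass had 103 and 158 CPM, a log2 ratio of 0.61 (0.50 to 0.73). Neutrophil-like cells had 247 and 314 CPM, a log2 ratio of 0.34 (0.08 to 0.62), and endothelial-like cells 52.2 and 56.4 CPM, a log2 ratio of 0.11 (-0.63 to 0.86).

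Csf2ra, the alpha chain with which CSF2RB pairs, lay at 98.3 and 95.2 CPM in the same phagocytes, a log2 ratio of -0.05 (-0.10 to 0.01). Its ratio was below 0 in monocyte-like cells at -0.12 (-0.22 to -0.01), in resident-macrophage-like cells at -0.15 (-0.27 to -0.02), in Spp1+ phagocytic-like cells at -0.16 (-0.25 to -0.06) and in cDC2-like cells at -0.23 (-0.44 to -0.03). In these 4 classes the intervals of the 2 chains of the receptor thus lay on opposite sides of 0. All 4 Csf2ra ratios were within 1.5-fold, and the median log2 ratio over all genes in resident-macrophage-like cells was -0.04. The share of all genes with an interval off 0 was not computed, so this contrast is not a result about the receptor. In mesenchymal-like cells Csf2ra had 2.32 and 5.25 CPM from 27 and 30 UMIs, a level at which free RNA cannot be set apart.

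Csf2rb2, the neighbouring mouse paralog that serves interleukin-3 (chromosome 15, GRCm39, 78166707 to 78189921, minus strand), was part of the list of pathway genes and was higher in the same phagocytes as Csf2rb. It had 24.6 and 41.5 CPM in mononuclear-phagocyte-like cells, a log2 ratio of 0.75 (0.66 to 0.85), and 14.3 and 27.0 CPM in resident-macrophage-like cells, a log2 ratio of 0.91 (0.69 to 1.14). Of the 90-base stretches in their annotated transcripts, 5.45% of those of Csf2rb occur in Csf2rb2 and 8.06% of those of Csf2rb2 in Csf2rb, so that reads over these stretches cannot be assigned and part of either count is uncertain. Its promoter is shown because both genes were higher in the SPP1-nAb library. The RefSeq sequence is at chr15:78305672-78305971 on build GRCm38.p6, minus strand, and capitals mark the match to TTCNNNGAA, the letters of STAT sites, searched on both strands.
Csf2rb2: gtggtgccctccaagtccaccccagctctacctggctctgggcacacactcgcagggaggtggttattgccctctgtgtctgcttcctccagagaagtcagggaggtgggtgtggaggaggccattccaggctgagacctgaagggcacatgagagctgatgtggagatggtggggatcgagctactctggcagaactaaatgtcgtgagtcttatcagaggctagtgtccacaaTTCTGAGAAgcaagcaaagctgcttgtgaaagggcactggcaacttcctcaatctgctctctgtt
The match begins at position -15 from the start. These letters were in 8.30% of promoters and in none of the 6 member promoters in the table. No promoter of Csf2rb, Csf1r, Il34 or Csf3 was available, so these were not searched.

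Csf3r marked neutrophil-like cells, at 1159 CPM (1074 to 1249) and 1002 CPM (954 to 1052), a log2 ratio of -0.21 (-0.34 to -0.08). The class with the next highest level, monocyte-like cells, had 59.2 and 63.0 CPM. Resident-macrophage-like cells had 46.3 and 57.0 CPM, a log2 ratio of 0.30 (0.16 to 0.43), and Spp1+ phagocytic-like cells 39.2 and 44.3 CPM, a log2 ratio of 0.18 (0.02 to 0.34). Non-immune cells had 0.483 and 1.36 CPM. The share of neutrophil-like cells with a Csf3r UMI was 40.4% and 39.6% after thinning to 500 UMIs, and no Csf3r ratio in these classes was past 1.5-fold.

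Kit, the receptor for the widely carried Kitl, had its highest level in cDC1-like cells. These had 112 CPM (95.8 to 130) and 87.8 CPM (73.7 to 104), with a UMI in 43.6% and 41.3% of cells, and the log2 ratio was -0.35 (-0.69 to -0.02). They held 57.5% and 45.0% of the gated Kit UMIs, while ungated cells held 12.5% and 17.7% of all Kit UMIs of a library. Endothelial-like cells followed with 28.6 and 49.8 CPM, from 17 and 30 UMIs, a log2 ratio of 0.80 (-0.11 to 1.75). The cDC2-like cells had 20.3 and 22.2 CPM and mregDC-like cells 15.7 and 19.6 CPM. In the IgG library the endothelial interval (16.7 to 45.8) overlapped those of cDC2-like (15.7 to 25.8) and mregDC-like cells (5.08 to 36.5). With SPP1-nAb the endothelial interval (33.6 to 71.0) overlapped that of mregDC-like cells (7.88 to 40.4), so these classes cannot be fully ordered. Resident-macrophage-like cells had 1 Kit UMI in each library, although they carried Kitl at 97.2 and 74.8 CPM. Mast cells, the textbook carriers of Kit in tissue, gave 0 and 1 gated cells, so the gate held no level for them.

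The list of 44 pathway genes, chosen with earlier results of these data known, held other receptors of interleukin-34, receptor chains, growth factors, shedding proteases, signal transducers, feedback inhibitors and myeloid transcription factors, and all 44 were found. In mononuclear-phagocyte-like cells 38 had enough UMIs, 3 of them were past 1.5-fold higher and 5 lower, where 2.49% of all genes were that much higher and 8.32% lower, and their median log2 ratio was 0.01. The higher genes were Csf2rb2, Sdc1, a syndecan that binds interleukin-34, and Cish, a feedback inhibitor induced by STAT5. Sdc1 had 5.90 and 10.8 CPM, a log2 ratio of 0.88 (0.68 to 1.08). In Spp1+ phagocytic-like cells, 2025 of 11619 and 4974 of 14803 phagocytes, it had 17.3 and 20.2 CPM, a log2 ratio of 0.22 (-0.01 to 0.46). In monocyte-like cells its log2 ratio was 0.98 (0.42 to 1.57). The lower genes were Tslp, Mmp9, Flt3, Gab3 and Dusp1, of which Tslp, an epithelial-type cytokine related to interleukin-7, had 36.6 CPM in the IgG library, a log2 ratio of -1.28 (-1.39 to -1.17). The pooled ratios of the pathway genes were not weighted by the make-up of subclasses, so the part of the mix in them was not tested.

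In resident-macrophage-like cells 35 of the 44 had enough UMIs to be counted, 4 were past 1.5-fold higher and 2 lower, with a median log2 ratio of 0.04, where 3.64% of all genes were that much higher and 6.30% lower. The lower count is thus close to the share over all genes. Cish had 4.89 and 14.4 CPM, a log2 ratio of 1.55 (1.19 to 1.93), and Socs2, of the same family, 5.19 and 8.56 CPM. Cebpb, a transcription factor of emergency granulopoiesis and macrophage activation, had 1206 and 1909 CPM, a log2 ratio of 0.66 (0.64 to 0.69). Csf2rb2 was the remaining higher gene. Within clusters 2 and 3 the log2 ratio of Cish had intervals of 0.38 to 2.49 and 0.51 to 1.93, and the log2 ratio was 0.41 and 0.49 for Cebpb, and 0.16 (-0.95 to 1.28) and 0.37 (-0.49 to 1.23) for Socs2. Tslp was lower at 97.8 and 56.4 CPM, a log2 ratio of -0.80 (-0.91 to -0.68), and so was Mmp9, a protease that can release Kit ligand from membranes and also a marker of the neutrophil gate, at 22.5 and 11.3 CPM. Within cluster 3 the log2 ratio was -0.42 (-0.54 to -0.29) for Tslp and -1.40 (-1.76 to -1.06) for Mmp9, and within cluster 2 it was -0.16 (-0.57 to 0.24) and -0.40 (-1.04 to 0.22).

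The other phagocyte subclasses had fewer such genes. In monocyte-like cells Sdc1 was higher, as 1 of 34 counted, where 2.54% of all genes were that much higher and 3.34% lower, and of the members Csf3 was past 1.5-fold as 1 of 6. In Spp1+ phagocytic-like cells none of 36 were higher and Flt3l, Gab3 and Dusp1 were lower, where 2.61% of all genes were higher and 3.27% lower, and none of 7 members was past 1.5-fold. In phagocytes without a subclass Csf2rb2 and Cish were higher among 34, where 2.63% of genes were higher and 2.87% lower, and Csf2rb was the 1 member of 6 past 1.5-fold. Gab3, an adaptor of CSF1R signalling, had 25.2 and 16.6 CPM in Spp1+ phagocytic-like cells, and Dusp1, a phosphatase of stress kinases, 633 and 377 CPM.

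In dendritic cells Cish and Csf2rb2 were higher in the cDC2-like class, at 27.0 and 47.8 CPM for Cish, as 2 of 30 counted, and Socs3 was lower, where 3.65% of all genes were higher and 3.50% lower. In cDC1-like cells Cblb and Cebpb were higher and Adam10, Socs3 and Irf8 lower, of 23, where 3.61% and 3.08% of all genes were. Irf8, the transcription factor on which cDC1 depend, had 943 and 602 CPM, a log2 ratio of -0.65 (-0.77 to -0.53), and it was lower in the pDC-like class too, at 1680 and 1112 CPM, where 2.83% of all genes were higher and 4.53% lower. In mregDC-like cells none of 13 was past 1.5-fold. In neutrophil-like cells Mitf was higher, as 1 of 21, at 119 and 263 CPM, which is below the 7.57% of all genes that were higher there. In NK-cell-like cells, with 22 and 48 cells, Lyn and Irf8 were higher of 5 counted, where 8.17% of all genes were higher and 3.83% lower.

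Among non-immune classes the mesenchymal-like cells had most of the list, with 27 counted, 4 higher and 2 lower, where 5.06% of all genes were higher and 7.17% lower, so that the lower count is close to the share over all genes. Runx1, a transcription factor of blood and of activated fibroblasts, had 225 and 492 CPM, a log2 ratio of 1.13 (1.05 to 1.21), which was 0.97 (0.79 to 1.14) within cluster 12 and 0.33 (0.24 to 0.43) within cluster 13. Jak2, the kinase of the CSF2RB receptors, had 81.3 and 132 CPM, Socs2 65.5 and 111 CPM, and Il3ra 21.6 and 34.7 CPM. Flt3l, the ligand for dendritic cell precursors, was lower at 21.5 and 10.7 CPM, a log2 ratio of -1.01 (-1.44 to -0.60), as was Gab3 at 14.3 and 7.70 CPM. Within clusters 12 and 13 the log2 ratio of Flt3l was -0.32 (-1.09 to 0.37) and -0.15 (-0.84 to 0.54), and that of Gab3 -0.54 (-1.44 to 0.25) and -0.48 (-1.31 to 0.34), all of which include no difference. Those of Jak2 were -0.02 (-0.33 to 0.28) and 0.59 (0.39 to 0.79), those of Socs2 0.61 and 0.28, and those of Il3ra 0.78 and 0.18. In satellite-cell-like cells Ptprz1, a phosphatase that can serve as an interleukin-34 receptor, had 121 and 48.3 CPM, a log2 ratio of -1.32 (-1.57 to -1.08), and Socs1 was higher, of 19 counted, where 4.59% of all genes were higher and 4.19% lower. Ptprz1 had -0.44 (-0.79 to -0.10) within cluster 7 and -0.72 (-1.39 to -0.06) within cluster 18, and Socs1 had -0.07 and 1.36. In tenocyte-like cells Cbl was higher, of 16, where 4.53% of genes were. In Schwann-like cells none of 13 was past 1.5-fold, where 1.45% of all genes were higher and 2.30% lower. Ptprz1 had 223 and 152 CPM there. None of 11 was in endothelial-like cells, where 3.16% of all genes were past 1.5-fold in each direction. None of 6 was in pericyte- or smooth-muscle-like cells, where 3.87% of all genes were higher and 4.07% lower. None of 3 was in differentiating-myocyte-like cells, where 10.1% of all genes were higher and 10.8% lower.

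The genes whose levels over the 17 classes were most like those of the members were read as a description, from Pearson correlations of log2(CPM + 1) over 11682 genes, where classes of 1 library share depth and free RNA. Il34 was nearest to Adamts17 (r = 0.950), Astn2 (0.946) and Hspa12a (0.944). Csf1 was nearest to Tlcd2 (0.877), then to Lcn2, a granule protein of neutrophils, and to Irak3 (0.845). Kitl was nearest to Lrrc8a (0.927) and Sh2d4b (0.895). Csf3 was nearest to Oas2 (0.92), Il10 (0.909) and Stab1 (0.908).

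Of the receptors, Csf1r was nearest to F13a1 (0.960) and Fcgr1 (0.935), both of them gate markers of phagocytes, and to Tlr8 (0.935). Csf2rb was nearest to Sgk3 (0.966), Skap2 (0.958) and Pip5k1c (0.943), and Csf2ra to Spi1 (0.940), the transcription factor PU.1, Alcam (0.939) and Pira2 (0.927). Csf3r was nearest to Clec5a (0.981), Gm16556 (0.968) and Tlr13 (0.964). Kit had the weakest likeness, to Zfp366 (0.815), a dendritic cell gene, Dnajc8 (0.779) and H2-Ob (0.770).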

How the data were processed

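Single cells of 2 libraries, 1 per group, were counted by the authors with Cell Ranger, and the counts deposited are whole-number UMIs per gene and barcode after its cell calling, without normalization. The file header names cellranger 9.0.1 and the submitters' processing notes Cell Ranger 8.0.0 and GRCm39. Totals were 97607674 UMIs in 23779 barcodes (IgG) and 127719916 in 25069 (SPP1-nAb).

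From these counts, barcodes with more than 200 genes and under 10% mitochondrial UMIs were kept (23385 and 24758), and the 10% with the highest share of simulated doublets among 30 neighbours were removed. A cell with at least 3 markers of a class entered the class with the largest share of its markers detected (tenocyte before mesenchymal), and cells passing gates of 2 lineages were set apart. UMIs were summed per class and library. Levels have exact Poisson, shares Clopper-Pearson and ratios exact binomial 95% intervals, which cover counting error only. No test between groups was possible with 1 library each. Ratios needed more than 3 UMIs per library, and counts past 1.5-fold at least 100 UMIs over both. Genes named are all 10 members, pathway genes past 1.5-fold, and the 3 genes most like each member with at least 200 UMIs. Members and lists were chosen with earlier results of these data known.

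Alternatives were other filters, doublet rates, gates, clusters, free-RNA subtraction and scaling. Chosen after seeing the data were thinning to 500 UMIs, assignment of cells with markers of 2 lineages, a fixed phagocyte make-up, and values within clusters. The 31 clusters put 95.6% of 38486 gated cells in the same class. None of the clusters was named for the pDC-, NK-cell- or differentiating-myocyte-like classes, and 100% of pDC-like cells lay in cluster 6, named cDC2. The intervals and the doublet step were tested on simulated data. Counts for the intervals were drawn as Poisson sums, without clumping of UMIs in single cells. That test therefore does not cover genes such as Csf2 and Csf3, whose UMIs lay in few cells. Gene positions are from the GENCODE annotation of GRCm39 and promoters from RefSeq (GRCm38.p6). Python 3.11, numpy 2.4.6, scipy 1.17.1, pandas 2.3.3, scikit-learn 1.9.0, igraph 0.11.9, leidenalg 0.10.2 and matplotlib 3.10.9 were used. A gene that the rule for likeness also named is not reported here.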

Additional observations from a re-analysis of the deposited data

Results flagged for a closer look

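For 3 members the ratio of SPP1-nAb over IgG lay on opposite sides of 0 in different cell classes by its counting interval, among classes with at least 100 UMIs of the gene over both libraries. With 1 library per group the difference between the classes was not tested. The share of all genes that meet the same rule was not computed, so the count of 3 is not a result about these members.

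Csf1 had a log2 ratio of 1.52 (1.00 to 2.06) in satellite-cell-like cells and of -0.28 (-0.55 to -0.01) in monocyte-like cells. The largest cluster of the monocyte-like class was cluster 4 in the IgG library (57.1% of it) and cluster 5 in the SPP1-nAb library (37.4%). The share of satellite-cell-like cells with a Csf1 UMI differed after thinning to 2000 UMIs, at 2.34% and 5.42%, but not to 1000 UMIs, at 1.12% and 1.30%, or to 500 UMIs, at 0.550% and 0.535%. Csf1r had 0.41 (0.13 to 0.69) in cDC2-like cells and -0.16 (-0.20 to -0.12) in resident-macrophage-like cells. Csf3r had 0.30 (0.16 to 0.43) in resident-macrophage-like cells and -0.21 (-0.34 to -0.08) in neutrophil-like cells.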

How the results depend on the processing

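Class names, doublet calls and gates set the limits of these values, and depth limits Csf2, Csf3 and Il34, which had few UMIs. No paired analysis was possible because each group has 1 library. Of 240 levels recomputed under the alternatives 216 moved by less than their counting interval and 24 by more; of 252 ratios 240 stayed within it, 9 moved beyond it on the same side of 0 or from an interval that held 0, and 3 reversed.

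Shares of cells with a UMI moved in 50 of 60 cases when cells were thinned to fewer UMIs, which lowers them by construction, and shares of ligand UMIs in non-immune cells in 16 of 64. Without removal of doublets they were 60.4% (IgG) and 26.0% (SPP1-nAb) for Csf1 and 50.8% and 42.8% for Kitl. With 20% of barcodes removed they were 66.1% for Csf1 in IgG and 59.5% and 50.9% for Kitl. With 1 more marker per gate they were 67.4% and 33.5% for Csf1, and the tenocyte ratio of Kitl reversed to -0.54. With classes from clusters they were 32.8% for Csf1 in SPP1-nAb and 58.0% and 52.0% for Kitl, and the log2 ratios of Csf1 in neutrophil-like cells and Kitl in resident-macrophage-like cells were 0.47 and -0.53. With free RNA subtracted Il34 was 97.9% in IgG. With cells of 2 lineages given to a class, an alternative chosen after seeing the data, Csf1 was 33.3% in SPP1-nAb and Kitl 57.3% and 51.1%. Against the median gene Csf1r in pooled phagocytes was -0.09. With the IgG make-up of phagocytes, also chosen after seeing the data, pooled Csf2rb was 0.59, and Csf1r and Csf1 reversed to 0.01 and -0.05. Within clusters 2 and 3 Csf2rb in resident-macrophage-like cells was 0.40 and 0.48. The cause of these shifts was not tested beyond what each alternative changes by construction.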
